A study of Mus musculus with 24 samples.

Results

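The 10 genes described here mark the cells that line blood vessels or carry the main signals for vessel growth. They were chosen by symbol from the deposited expression table, and all 10 were among its 21833 protein-coding genes. Pecam1, Cdh5, Plvap and Vwf are endothelial markers, Kdr, Flt1, Tek and Tie1 are endothelial receptors, and Vegfa and Angpt2 are secreted ligands. The rule used the symbols alone, but the genes were listed with earlier results of these data known.

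RNA-seq of poly(A)-enriched, strand-specific libraries was performed on 24 samples of adrenal gland or neuroblastoma tumor from mice on a C57Bl6/N background. The AG group (n = 3) held adrenal glands labelled CRE -. AGM (n = 5) were glands without tumor from MYCN +/-, CRE + animals, TI (n = 8) were CRE + tumors with the IGF2BP1 transgene, 7 of them +/+ and 1 +/-, and TIM (n = 8) were CRE + tumors labelled IMP1/MYCN, IMP1 being another name of IGF2BP1. Each transgene is a human open reading frame at the Rosa26 locus behind a stop cassette, which iCRE removes under the Dbh promoter of noradrenergic sympatho-adrenal cells. Per the labels' zygosity, 7 of the TI tumors carry the IGF2BP1 transgene at both Rosa26 alleles, whereas in the study's genotyping TIM animals had no wildtype Rosa26 allele and so 1 allele of each transgene. Per the study, AGM mice were culled at a fixed late time and tumor mice when termination criteria were met, so that age differed between groups and cannot be told apart from them, and the age of AG mice was not given in the sources used here. Tumors differed in site, and neither age, site, zygosity nor sequencing run could be linked to the table's columns, so libraries are numbered here by the order of the columns within a group.

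Endothelial cells build vessels under the control of paired ligands and receptors. Vegfa binds Kdr (VEGFR2), the main receptor for endothelial proliferation and migration, and Flt1 (VEGFR1), which holds the ligand with high affinity and acts largely as a decoy. Tek (Tie2) keeps vessels quiescent when bound by Angpt1 from mural cells, Angpt2 is released by endothelium and mostly opposes that signal, and Tie1 is a co-receptor of Tek. The adrenal gland is densely vascularized, with thin fenestrated capillaries in the cortex whose diaphragms are formed by Plvap.

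Values are FPKM, in which fragments are scaled to the length of a gene and to the size of the library. They rested on 12334076 to 23683176 recovered reads per library outside 126 genes listed above 1000 FPKM. These 126 genes took up to 98.6% of the recovered reads of single AGM libraries and up to 97.3% of TIM libraries, but at most 2.21% in TI and 0.792% in AG. Deposited FPKM were 5.15- to 6.03-fold (median of each library) below FPKM recomputed without those genes. Reads recovered from the table are those after the authors' batch correction. Per the labels AG was sequenced in run 1 and AGM in run 2, and 6 of 8 TI libraries were in run 1 while TIM was divided over runs 2 and 3. Run and group cannot be told apart for AGM against AG or TIM against AG. Mouse Mycn was at most 1.19 FPKM in glands and ranged from 1.57 to 15.6 in TI and from 1.2 to 4.38 in TIM, and mouse Igf2bp1 stayed at or below 0.0796 FPKM throughout, the transgenes being human. TI library 4 stood apart from the other tumors in most of the endothelial genes, and values without it are given where they change a call or a count.

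Sequence upstream of the start was at hand for 5 of the 10 genes (Kdr, Tek, Tie1, Flt1 and Vegfa; RefSeq, build GRCm38.p6), and Pecam1, Cdh5, Plvap, Vwf and Angpt2 had no entry. The 250 bases before the start are printed because these receptors and their ligand changed to unequal extents in the same tissue. Capitals mark the ETS-type cores CCGGAA and CAGGAA on either strand, the reverse strand reading TTCCGG and TTCCTG. Genes of endothelium are commonly bound by ETS factors.
Kdr (GRCm38.p6 chr5:75978456-75978705, minus strand): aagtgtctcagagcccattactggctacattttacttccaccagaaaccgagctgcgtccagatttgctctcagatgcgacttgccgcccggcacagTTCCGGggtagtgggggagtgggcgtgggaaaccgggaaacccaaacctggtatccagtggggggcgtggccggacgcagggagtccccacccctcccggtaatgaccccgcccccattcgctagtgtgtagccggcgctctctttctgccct
Tek (GRCm38.p6 chr4:94739039-94739288, plus strand): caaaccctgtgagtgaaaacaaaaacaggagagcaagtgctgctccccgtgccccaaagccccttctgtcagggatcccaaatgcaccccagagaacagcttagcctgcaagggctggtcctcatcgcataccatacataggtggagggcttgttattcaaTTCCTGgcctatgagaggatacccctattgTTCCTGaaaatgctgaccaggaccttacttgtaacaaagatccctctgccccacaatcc
Tie1 (GRCm38.p6 chr4:118489850-118490099, minus strand): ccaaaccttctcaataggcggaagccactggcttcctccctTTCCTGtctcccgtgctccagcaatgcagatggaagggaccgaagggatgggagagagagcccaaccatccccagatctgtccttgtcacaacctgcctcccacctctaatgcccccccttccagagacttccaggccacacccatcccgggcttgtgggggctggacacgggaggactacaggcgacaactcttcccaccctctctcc
Flt1 (GRCm38.p6 chr5:147726012-147726261, minus strand): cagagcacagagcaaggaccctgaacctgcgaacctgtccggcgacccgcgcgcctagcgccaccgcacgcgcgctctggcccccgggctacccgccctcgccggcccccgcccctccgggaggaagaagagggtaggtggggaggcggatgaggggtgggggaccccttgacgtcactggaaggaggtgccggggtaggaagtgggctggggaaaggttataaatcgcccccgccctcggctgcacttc
Vegfa (GRCm38.p6 chr17:46032378-46032627, minus strand): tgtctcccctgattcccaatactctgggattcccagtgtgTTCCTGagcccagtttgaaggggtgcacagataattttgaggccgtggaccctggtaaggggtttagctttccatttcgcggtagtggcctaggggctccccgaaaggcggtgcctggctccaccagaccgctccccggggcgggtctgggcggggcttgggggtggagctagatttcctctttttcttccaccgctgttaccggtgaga

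Kdr had 1 CCGGAA core, which 12% of the 32851 promoter stretches in the same table also held. Tek had 2 CAGGAA cores at 89 and 59 bases before the start, Tie1 had 1 at 209 bases and Vegfa 1 at 210 bases, a core present in 25.7% of all stretches. Flt1 had neither of these cores, and no other form of an ETS-type core was searched. It held the letters TATAAA 31 bases before the start (12.4% of all stretches). GGGCGG (32.7%) was present in 3 copies in Flt1 and in 2 copies each in Kdr and the printed Vegfa stretch. The GATA-type letters AGATAA were found in the Vegfa stretch alone (9.99% of all). All motifs were searched on both strands. The palindrome CACGTG, which contains the shorter ACGTG, was in none of these stretches (6.02% of all), and ACGTG occurred once, in a stretch of a second Vegfa start that is not printed (16.6%). The GC content ranged from 51.2% in Tek to 70.4% in Flt1 beside a median of 52.4%. These matches describe the printed windows only.

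Kdr and Tek, the signalling receptors for Vegfa and the angiopoietins, were lower in both kinds of tumor than in any adrenal gland. Kdr (GRCm39 chr5:76093487-76139884) was measured at 4.09, 3.59 and 3.77 FPKM in AG and at 1.68, 2.00, 1.89, 1.80 and 1.89 in AGM. Among tumors, TI ranged from 0.135 over a median of 0.289 to 1.27, and TIM from 0.0485 over 0.280 to 0.685. Groups of glands and tumors did not overlap, and the AGM libraries lay between AG and all tumors. The mean was 9.68-fold lower in TI and 12-fold lower in TIM than in AG, a log2 fold change of -1.82 ± 0.15 (SE; limma on log2(FPKM + 1), FDR 8e-10) and -1.88 ± 0.15 (limma FDR 4.36e-10). In AGM it was 2.06-fold lower (-0.75 ± 0.16, limma FDR 0.00142), a call lost with 0.1 FPKM added in place of 1 (FDR 0.0924), with recomputed FPKM (0.0599) and with limma-voom on recovered reads (0.0835). Fold changes on the log2(FPKM + 1) scale understate changes of genes below about 1 FPKM.

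Tek (GRCm39 chr4:94627291-94763224) had the largest fold difference in mean FPKM of the 10 genes. It was 3.54, 3.29 and 3.14 FPKM in AG and 1.05, 1.39, 1.33, 1.04 and 0.945 in AGM. TI libraries ranged from 0.0403 over 0.123 to 0.589 FPKM and TIM libraries from 0.0143 over 0.0716 to 0.273, the lowest value resting on 6 reads. Every tumor was below every gland, and every AGM gland was below every AG gland. Means were 18.8-fold lower in TI (-1.89 ± 0.10, limma FDR 4.09e-13), 34.8-fold lower in TIM (-1.98 ± 0.10, limma FDR 1.6e-13) and 2.88-fold lower in AGM (-1.01 ± 0.11, limma FDR 2.23e-07).

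Tie1, the co-receptor of Tek, was 3.18 to 3.30 FPKM in AG and 3.19 to 4.64 in AGM. It ranged from 0.309 over 0.655 to 4.80 FPKM in TI and from 0.162 over 0.843 to 2.36 in TIM. All TIM libraries and 7 of 8 TI libraries were below AG, TI library 4 being above. Tie1 fell in TI by 1.15 (± 0.33 SE) and in TIM by 1.2 (± 0.33) on the log2 scale (limma FDR 0.00572 and 0.00435), whereas AGM differed from AG by 0.15 ± 0.36 (FDR 0.794).

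Flt1, the decoy-type VEGF receptor, was 0.932, 0.821 and 0.912 FPKM in AG and 0.993 to 1.30 in AGM. It ranged from 0.0703 over 0.164 to 2.97 FPKM in TI and from 0.0582 over 0.332 to 0.717 in TIM. All TIM libraries and 7 of 8 TI libraries were below AG, while TI library 4 held 2.97 FPKM. The limma test did not call Flt1 in TI (-0.42 ± 0.26, FDR 0.190) or TIM (-0.50 ± 0.26, FDR 0.116). Without TI library 4, the limma FDR was 0.000448 in TI against AG and 0.00311 in TIM against AG.

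**Figure D1:**
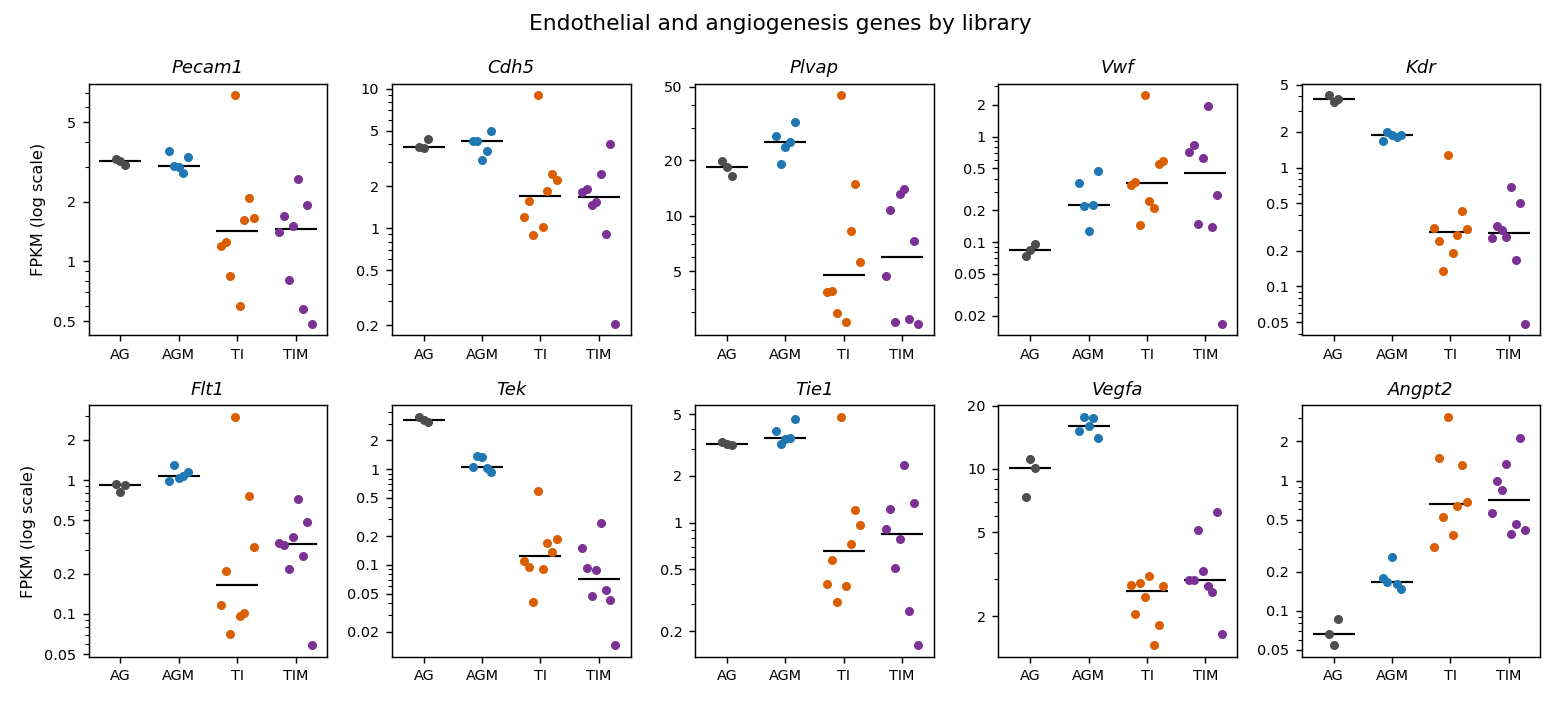
FPKM of the 10 genes by library (points, log axes that differ between panels), with the median of each group as a line, for AG (n = 3), AGM (n = 5), TI (n = 8) and TIM (n = 8). Kdr, Tek and Vegfa of every tumor lie below every AG library, Angpt2 of every tumor lies above, and TI library 4 is the highest TI point for Pecam1 (6.86), Cdh5 (9.01) and Plvap (45.2).

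Among the structural markers, Cdh5 (VE-cadherin, the adhesion molecule of endothelial junctions) was 3.80, 3.74 and 4.34 FPKM in AG and 3.07 to 5.00 in AGM. TI ranged from 0.886 over 1.70 to 9.01 FPKM and TIM from 0.206 over 1.67 to 4.02. In each tumor group 7 of 8 libraries were below the AG range. Cdh5 fell in TIM by 0.93 ± 0.38 (limma FDR 0.0423) and was at -0.72 ± 0.38 in TI (limma FDR 0.117; 0.00624 without TI library 4).

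Pecam1 (CD31, found on endothelium, platelets and some leukocytes) was 3.04 to 3.26 FPKM in AG and 2.80 to 3.59 in AGM. It ranged from 0.595 over 1.43 to 6.86 FPKM in TI and from 0.487 over 1.46 to 2.61 in TIM. All 8 TIM and 7 TI libraries were below AG. The decrease was called in TIM (-0.87 ± 0.32, limma FDR 0.0272) and not in TI (-0.65 ± 0.32, FDR 0.0935; 0.00226 without TI library 4).

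Plvap, of the capillary diaphragms, was the most abundant of the 10 genes in AG, per length, with 19.9, 18.3 and 16.5 FPKM, and AGM held 19.2 to 32.1 FPKM. TI ranged from 2.65 over 4.77 to 45.2 FPKM and TIM from 2.60 over 6 to 13.9. TIM libraries were all below AG, as were 7 of 8 TI libraries. Its log2 change was -1.46 ± 0.58 in TIM (limma FDR 0.0415) and -1.28 ± 0.58 in TI (FDR 0.0715; 0.00458 without TI library 4).

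Vwf, the clotting factor stored by endothelium and platelets, was the only one of the 10 genes under the expression filter (at least 1 FPKM in at least 3 libraries) and was compared by exact permutation. It was 0.0743, 0.0840 and 0.0962 FPKM in AG and 0.127 to 0.468 in AGM. TI ranged from 0.144 over 0.359 to 2.48 FPKM, and TIM from 0.0168 over 0.455 to 1.94. All 8 TI, all 5 AGM and 7 of 8 TIM libraries were above AG. For tumors this was opposite in direction to the group means of Pecam1, Cdh5 and Plvap. In AGM the mean over that of AG was 0.996 for Pecam1, 1.01 for Cdh5 and 1.39 for Plvap. The two-sided exact permutation test of mean FPKM, adjusted over 5 comparisons, did not call the Vwf differences (adjusted p = 0.427 in TI, 0.427 in TIM and 0.268 in AGM). On log2(FPKM + 0.1) the adjusted exact permutation p for Vwf was 0.134, 0.192 and 0.134.

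Vegfa (GRCm39 chr17:46327919-46343309), the main growth signal for endothelium, was 7.34, 11.1 and 10.1 FPKM in AG and 15.1, 17.7, 16, 17.4 and 14.0 in AGM. It ranged from 1.45 over 2.63 to 3.09 FPKM in TI and from 1.64 over 2.97 to 6.25 in TIM. No tumor reached the lowest AG gland and no AG gland reached the lowest AGM gland. The mean was 3.94-fold lower in TI (-1.62 ± 0.22, limma FDR 1.57e-06) and 2.76-fold lower in TIM (-1.29 ± 0.22, limma FDR 3.48e-05), and 1.68-fold higher in AGM (0.71 ± 0.24, limma FDR 0.0279). The AGM call was lost without AG library 1 (FDR 0.165), AG library 3 (0.0615) or AGM library 4 (0.0538), and with 0.1 FPKM added (0.06) or limma-voom (0.0556). Unlike the other 9 genes of the set, for which TI library 4 was the highest TI tumor, Vegfa of TI library 4 (2.47 FPKM) lay within the range of the other TI tumors.

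The hormone-producing cortex, a tissue rich in Vegfa, differed between the same groups. The sum of 8 cortex markers (Star, Cyp11a1, Cyp11b1, Cyp11b2, Cyp21a1, Hsd3b1, Nr5a1, Mc2r) was 645 to 667 FPKM in AG and 4290 to 5370 FPKM in AGM, whereas no TI tumor exceeded 10.1 and no TIM tumor 9.28. The limma test called all 8 higher in AGM, beside 14.6% of all genes. It called 7 of 8 lower in each tumor group, beside 27.7% of all genes in TI and 28.5% in TIM. The 8 log2 changes in AGM ran from 0.99 (Star) to 9.01 (Cyp11b2), so the sum does not show a uniform gain of cortex there. Vegfa was likewise highest in AGM and lowest in tumors, and the part of cortex content in the Vegfa result was not tested.

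Angpt2 (GRCm39 chr8:18739202-18791603), the antagonistic angiopoietin, was the only tested gene of the set that rose in tumors. It passed the expression filter through tumor libraries alone, as no gland reached 1 FPKM. Angpt2 was thus tested only because its tumor levels were high. It was 0.0657, 0.0541 and 0.0868 FPKM in AG, on 21 to 34 reads, and 0.146 to 0.260 in AGM. TI ranged from 0.308 over 0.658 to 3.09 FPKM and TIM from 0.387 over 0.706 to 2.14. The groups AG, AGM and tumors did not overlap. Means were 15.3-fold higher in TI (0.84 ± 0.26, limma FDR 0.0106) and 13-fold higher in TIM (0.77 ± 0.26, limma FDR 0.0186). In AGM the mean was 2.64-fold higher and limma did not call it (0.14 ± 0.29, FDR 0.752). That SE comes from 1 spread shared by all groups. The SD of Angpt2 was 0.0166 FPKM in AG and 0.0453 in AGM, beside 0.924 in TI and 0.602 in TIM. The missing call in AGM thus does not show equal levels.

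Summed over the 9 tested genes, 4 were lower (Kdr, Tek, Tie1 and Vegfa) and 1 was higher (Angpt2) in TI than in AG. Angpt2 passed the filter through tumor libraries alone. Of all 10171 tested genes, 27.7% were lower and 24.6% higher. Without TI library 4 the limma test called all 9, beside 28% of all genes lower and 24.6% higher. In TIM, 7 were lower and 1 was higher than in AG, beside 28.5% and 22.5% of all genes. These 8 fell to 4 when any AG library was left out, the calls of Pecam1, Cdh5, Plvap and Angpt2 being lost. Cdh5 and Plvap were also lost without any of 4 TIM libraries each, with FDR from 0.0539 to 0.0681. In AGM, Kdr and Tek were lower and Vegfa was higher, beside 14.0% lower and 14.6% higher of all genes. When AG and AGM alone set the spread, more of the 9 and also more of all tested genes were called in AGM, as counted below. That rise was thus not particular to the 9. The median log2 change of the 9 was -1.15 in TI, -1.2 in TIM and 0.14 in AGM, whereas that of all genes was 0.00 in each. These 3 comparisons share the AG libraries. In whole tissue, fewer endothelial cells and less RNA per cell cannot be told apart.

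**Figure D2:**
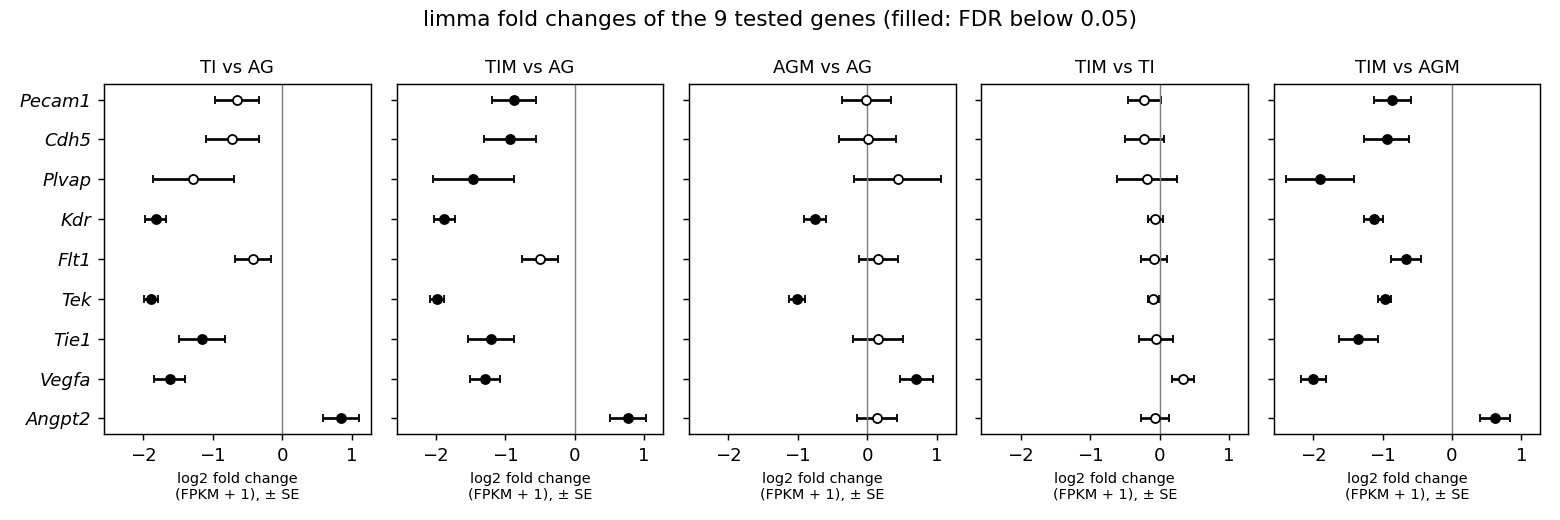
limma log2 fold changes (x axis, log2(FPKM + 1), ± SE) of the 9 tested genes in 5 comparisons, filled where the FDR was below 0.05. Tek and Kdr lie to the left in TI, TIM and AGM against AG, Angpt2 lies to the right in the tumor groups (0.84 and 0.77), and no point is filled for TIM against TI.

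TIM tumors differ from TI tumors in the MYCN transgene, in the number of IGF2BP1 alleles and largely in sequencing run. Per the study they also differ in age and in tumor site. These differences cannot be told apart. None of the 9 genes was called by limma, beside 10% of all genes higher and 12.9% lower, and none was at an unadjusted p under 0.05 except Vegfa. Vegfa was at 0.34 ± 0.16 (limma FDR 0.134), with 3 of 8 TIM libraries above every TI library, and its FDR was 0.0359 without TIM library 8. The other 8 genes differed by -0.22 to -0.05 on the log2 scale with SE of 0.08 to 0.43. Setting TIM against AGM, 8 of 9 genes were lower and Angpt2 was higher (0.62 ± 0.22, limma FDR 0.0179), beside 33.4% of all genes lower and 31.9% higher. Vegfa was at -2.0 ± 0.18 (limma FDR 2.95e-09) and Plvap at -1.90 ± 0.49 (limma FDR 0.00199) on the log2(FPKM + 1) scale, whereas by mean FPKM Tek was 12.1-fold, Kdr 5.84-fold, Vegfa 4.64-fold and Plvap 3.52-fold lower.

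The difference of TIM from TI was also set against the difference of AGM from AG. Besides MYCN, the first holds the IGF2BP1 alleles, run, age and tumor site. The second holds CRE, run and possibly age, so neither is the effect of MYCN alone. Tek and Kdr differed between these contrasts, by 0.92 ± 0.13 (limma FDR 3.06e-05) and 0.69 ± 0.20 (FDR 0.0263), beside 10% of all genes called in either direction. Tek and Kdr were lower in AGM than in AG and not called between the tumors. The added 1 FPKM limits how far a gene at tumor levels can fall on this scale. With 0.1 FPKM added in its place the FDR was 0.213 for Tek and 0.403 for Kdr, and with limma-voom on recovered reads 0.633 and 0.542.

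Ratios to Cdh5 within a library, computed as (FPKM + 0.1)/(Cdh5 FPKM + 0.1), asked which genes changed to another extent than this junction gene, and were compared by two-sided exact permutation with p adjusted over 45 tests. Pecam1 per Cdh5 had medians of 0.858 in AG, 0.785 in AGM, 0.832 in TI and 0.840 in TIM, and no comparison was called. Flt1 and Plvap per Cdh5 were not called either, with medians of 0.240 and 4.80 in AG, 0.178 and 3.06 in TI and 0.260 and 4.08 in TIM. Vegfa per Cdh5 had medians of 2.30 in AG, 4.10 in AGM, 1.27 in TI and 1.83 in TIM, also without a call.

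Kdr and Tek were lower relative to Cdh5. The Kdr ratio of the AG glands was 0.872 to 1.07, that of the AGM glands 0.390 to 0.628, and tumors held 0.150 to 0.311 (TI) and 0.146 to 0.486 (TIM). It was 4.55-fold lower in TI, 3.95-fold in TIM (adjusted exact permutation p = 0.0233 each) and 2.01-fold in AGM (adjusted exact permutation p = 0.0494). The Tek ratio was 0.730 to 0.933 in AG glands and 0.205 to 0.452 in AGM glands, and tumors held 0.0756 to 0.169 (TI) and 0.0346 to 0.374 (TIM). It was 6.84-fold lower in TI, 7.10-fold in TIM and 2.77-fold in AGM with the same adjusted p. Neither ratio overlapped between AG and any other group. TI library 4, despite its high Cdh5, kept Kdr at 1.27 and Tek at 0.589 FPKM, below all AG and AGM libraries.

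Tie1 per Cdh5 was 0.740 to 0.872 in AG and 0.382 to 0.538 in TI, a 1.85-fold decrease (adjusted exact permutation p = 0.0233), whereas TIM spread from 0.348 to 0.972 (adjusted exact permutation p = 0.223). Vwf per Cdh5 was 0.0442 to 0.0480 in AG glands and 0.0717 to 0.111 in AGM glands, with tumors at 0.160 to 0.341 (TI) and 0.0919 to 0.806 (TIM). Every library of these 3 groups was above AG, by 1.95-fold in AGM, 5.83-fold in TI and 6.89-fold in TIM (adjusted exact permutation p = 0.0494, 0.0233 and 0.0233). Angpt2 per Cdh5 rose 11-fold in TI and 13.5-fold in TIM (adjusted exact permutation p = 0.0233 each), from 0.0402 to 0.0425 in AG, and was 1.65-fold higher in AGM without passing the threshold (adjusted exact permutation p = 0.121). Angpt2 and Vwf of all AG glands were below the 0.1 FPKM added, so these folds depend on it. With nothing added, an alternative chosen after seeing the data, Angpt2 per Cdh5 was 24.7-fold higher in TI, 31.5-fold in TIM and 2.62-fold in AGM (adjusted exact permutation p = 0.0227, 0.0227 and 0.0446), and Vwf per Cdh5 was 10.2-fold higher in each tumor group (adjusted exact permutation p = 0.0227). Tek per Cdh5 was then 11.9-fold lower in TI and 16.9-fold lower in TIM with the same adjusted p. No ratio was called between TIM and TI. With any AG library left out, none of the ratios against AG could pass, since 2 AG libraries do not allow a p small enough. The calls of AGM against AG were lost in 14 of the 24 comparisons that left out 1 library.

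**Figure D3:**
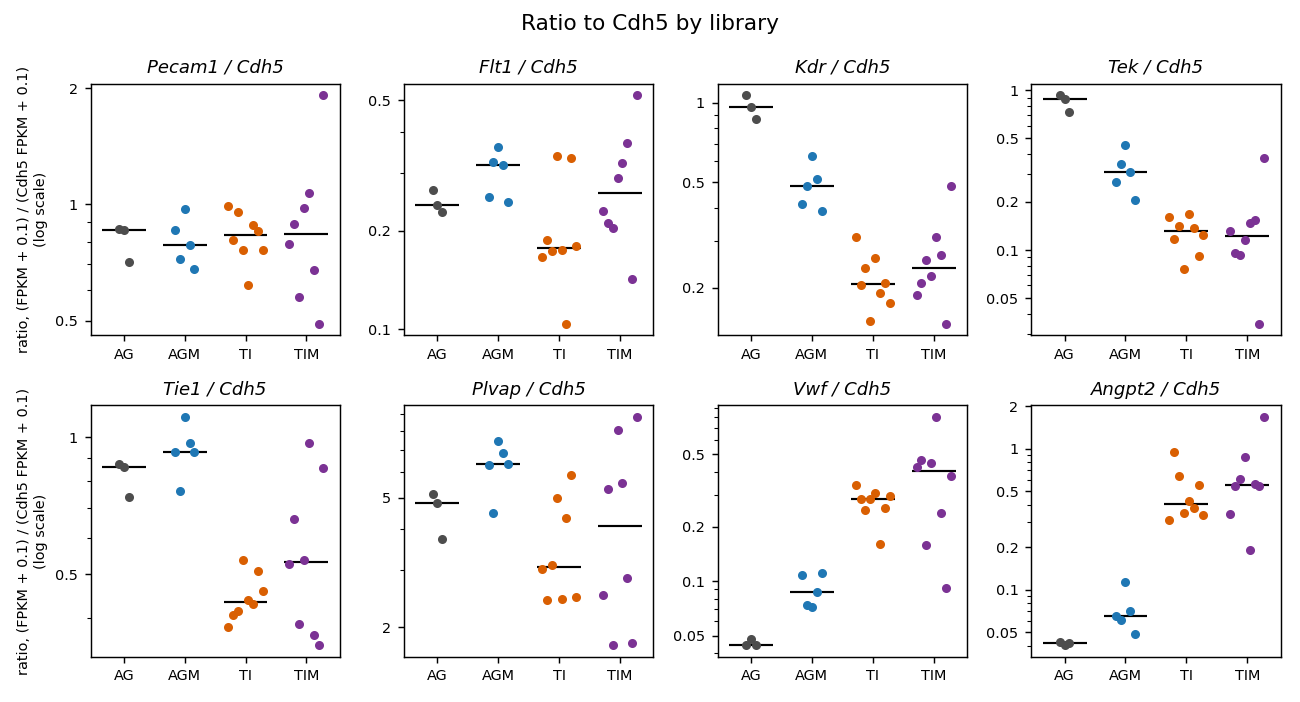
Ratio of 8 genes to Cdh5 by library (points, log axes that differ between panels), each as FPKM + 0.1 over Cdh5 FPKM + 0.1, with group medians as lines. Pecam1 per Cdh5 has group medians of 0.785 to 0.858, with TIM libraries spread from 0.491 to 1.92. Kdr and Tek step down from AG over AGM to the tumors, and Vwf and Angpt2 step up.

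Platelets and leukocytes also carry some of these transcripts. Pf4, a platelet chemokine, was 0.388 to 0.431 FPKM in AG and 2.4 to 5.04 in AGM, and tumors held 0.0799 to 1.4 (TI) and 0.218 to 3.16 (TIM). The limma test called both tested platelet markers, Pf4 and Gp9, higher in AGM, beside 14.6% of all genes, and neither in TI or TIM. Gp9 was 0.0124 to 21.2 FPKM across AGM libraries and listed at 0 in all 8 TIM libraries. The sum of the 5 platelet markers (Pf4, Ppbp, Itga2b, Gp1bb, Gp9) was 0.504 to 0.548 FPKM in AG and 5.6 to 24 in AGM. It was at most 1.48 in TI and reached 356 in TIM library 5, of which Gp1bb alone held 355, a gene listed at 0 in AG and at most 0.0396 FPKM in TI. The sum thus rested on single genes. The red cell marker Alas2 was also higher in AGM (2.30 ± 0.68, limma FDR 0.0144). Leukocyte markers (Ptprc, Csf1r, Adgre1, Cd68, Tyrobp) summed to 7.71 to 14.7 FPKM in AG glands and 13.3 to 22 in AGM glands, beside 5.95 to 20.9 in TI tumors and 8.21 to 17.9 in TIM tumors. The part of blood cells in the Vwf and Pecam1 values was not tested. Adipocyte markers (Adipoq, Plin1, Cfd, Fabp4, Lep) summed to 69.8 to 660 FPKM in AG and 289 to 1160 in AGM and to at most 48.4 in tumors. All 5 were lower in TI and TIM, beside 27.7% and 28.5% of all genes. The part of fat in the gland values was not tested.

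Other endothelial genes were mostly lower as well. The 7 markers used to check for endothelium (Pecam1, Cdh5, Tie1, Emcn, Cldn5, Erg, Esam) were detected in every group, and summed to 18.5 to 19.5 FPKM in AG and 20.8 to 27.8 in AGM, beside 3.34 to 30.2 in TI tumors and 2.35 to 12.7 in TIM tumors. Of 22 listed identity genes outside the 10, 15 passed the filter, of which limma called 10 lower in TI and 11 lower in TIM than in AG and none higher, beside 27.7% and 28.5% of all genes lower. These were 13 and 12 without TI library 4, beside 28% and 28.7% of all genes lower. Sox18, an endothelial transcription factor, was 3.64 to 5.37 FPKM in AG, 0.654 to 1.26 in TI and 0.284 to 2.27 in TIM (log2 change -1.51 ± 0.20 and -1.63 ± 0.20, limma FDR 1.46e-06 and 4.81e-07). Eng, a TGF-beta co-receptor, was lower by -1.47 in TI and -1.68 in TIM (limma FDR 0.00236 and 0.000715). Cldn5 of tight junctions was 3.45 to 3.80 FPKM in AG, 0.232 to 1.30 in TI and 0.110 to 2.39 in TIM, and 5.56 to 9.71 in AGM, where it was higher (0.82 ± 0.27, limma FDR 0.0294). Emcn and Robo4 were also lower in both tumor groups, with log2 changes of -0.89 and -0.53 in TI and -1.01 and -0.63 in TIM. The median over the 15 genes was -0.73 in TI, -0.67 in TIM and 0.07 in AGM beside 0.00 over all genes, and none of the 15 was called between TIM and TI. All 15 were lower in TIM than in AGM, beside 33.4% of all genes.

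Erg, another endothelial transcription factor, lay under the filter and was 0.658 to 0.718 FPKM in AG, 0.0663 to 0.780 in TI and 0.0615 to 0.401 in TIM. It was lower in both by exact permutation (adjusted p = 0.0404 and 0.0152). The adjusted exact permutation p was 0.0139 for both without TI library 4. Notch4, the endothelial Notch receptor, was 0.843 to 0.990 FPKM in AG glands, and tumors held 0.347 to 1.51 (TI) and 0.163 to 0.882 (TIM), which were not called (adjusted exact permutation p = 0.343 and 0.0606) but were without TI library 4 (0.0208 and 0.0404).

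Of 7 further VEGF ligands and receptors, 6 were tested. Vegfb, Flt4 (the receptor of lymphatic and sprouting endothelium) and Vegfd were lower in TI, with log2 changes of -0.78, -0.61 and -2.17. Those and Nrp1 were lower in TIM. Of all genes, 27.7% were lower in TI and 28.5% in TIM. Pgf, a ligand of Flt1, was 0.0552 to 0.0578 FPKM in AG, 0.130 to 1.87 in TI and 0.182 to 1.19 in TIM, and was called in TIM (0.54 ± 0.21, limma FDR 0.0403) but not in TI (0.50 ± 0.21, FDR 0.0542). Pgf passed the filter through tumor libraries alone and lay under it without TI library 4. Vegfc, under the filter, was 0.181 to 0.350 FPKM in AG glands, and tumors held 0.0537 to 0.926 (TI) and 0.0718 to 0.155 (TIM), with an adjusted exact permutation p of 0.897 and 0.0152.

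Nrp1, a co-receptor of Kdr, was the only one of the 6 that differed between TIM and TI. AG glands held 2.61 to 2.77 FPKM and AGM glands 0.388 to 0.526, and tumors held 0.650 to 3.64 (TI) and 0.247 to 1.23 (TIM). Nrp1 was lower in AGM than in AG (-1.36 ± 0.23, limma FDR 0.000111) and lower in TIM than in TI (-0.87 ± 0.16, limma FDR 0.000685). AGM and TIM came from runs 2 and 3, and AG and most of TI from run 1. Nrp2 was 1.99 to 2.21 FPKM in AG, 0.460 to 6.09 in TI and 0.909 to 3.5 in TIM and was not called in either.

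In the angiopoietin axis, Angpt1, the agonist of Tek, was at or below 0.234 FPKM in all libraries, under the filter. It was 0.0251 to 0.0344 FPKM in AG, 0.00257 to 0.0538 in TI and 0.00168 to 0.163 in TIM, and TIM exceeded TI (adjusted exact permutation p = 0.0427). The 2 tested genes of this list were angiopoietin-like genes, and whether they act on Tek was not tested. Angptl4 fell in TI by 1.28 and in TIM by 1.10 (limma FDR 0.00119 and 0.00434), and Angptl2 fell by 0.60 in TI (limma FDR 0.0402). Of all genes, 27.7% were lower in TI and 28.5% in TIM. In the Notch, tip cell and arteriovenous list, 10 of 16 genes were tested. TI had 3 lower (Aplnr, Ephb4, Nr2f2) and 2 higher (Jag2, Efnb2), and TIM had 3 lower and 1 higher, beside 27.7% lower and 24.6% higher of all genes in TI and 28.5% and 22.5% in TIM. With TI library 4 left out, 5 were lower and 1 was higher in TI, Efnb2 being lost (limma FDR 0.0721), and 4 were lower and 1 was higher in TIM. Ephb4, the venous ephrin receptor, fell by 2.02 in TI and 2.03 in TIM (limma FDR 5.99e-09 and 5.47e-09). Dll4 and Esm1, genes of sprouting tip cells, were not called against AG, with Dll4 at 0.755 to 1.12 FPKM in AG, 0.409 to 3.63 in TI and 0.213 to 1.33 in TIM, and Esm1 at 1.01 to 1.5, 0.149 to 5.95 and 0.0891 to 2.58.

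Mural cells are the pericytes and smooth muscle around vessels. Of 10 tested mural genes, 3 were higher and 1 was lower in TI, and 4 were higher and 1 was lower in TIM, beside 24.6% and 22.5% of all genes higher. In AGM 2 were higher, Tagln (1.51, limma FDR 0.036) and Kcnj8 (1.06, limma FDR 0.00246), beside 14.6% of all genes. Without TI library 4, 3 were higher in TI, 5 in TIM and 3 in AGM. Rgs5, a pericyte marker, was 1.48 to 2.08 FPKM in AG, 3.30 to 24.3 in TI and 3.82 to 8.89 in TIM, with no overlap (log2 change 1.56 ± 0.34 and 1.27 ± 0.34, limma FDR 0.000474 and 0.00308), and its change was 1.32 ± 0.23 in TI without TI library 4. Acta2 rose by 1.76 and 1.71 and Mcam by 1.22 and 1.78. The lower gene was Pdgfb, the endothelial ligand that recruits pericytes, at 2.53 to 2.92 FPKM in AG, 0.226 to 0.981 in TI and 0.278 to 1.83 in TIM (-1.29 ± 0.18 and -1.15 ± 0.18, limma FDR 3.42e-06 and 1.66e-05). Its receptor Pdgfrb was not called, at 1.29 to 1.54 FPKM in AG, 0.653 to 6.44 in TI and 0.309 to 3.33 in TIM. Over the mural list, the median log2 change was 0.46 in TI (0.27 without TI library 4), 0.72 in TIM and 0.41 in AGM, beside 0.00 over all genes.

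Of 11 tested hypoxia-response genes, 3 were higher and 4 lower in TI and 1 was higher and 3 were lower in TIM than in AG, beside 24.6% and 22.5% of all genes higher and 27.7% and 28.5% lower. In AGM 3 were higher and 1 was lower, beside 14.6% and 14.0% of all genes. Epas1, the HIF subunit found in endothelium, was 8.03 to 8.21 FPKM in AG, 0.456 to 6.70 in TI and 0.398 to 3.78 in TIM (-1.70 ± 0.42 and -1.68 ± 0.42, limma FDR 0.00157 and 0.00178). Adm, a vasoactive peptide induced by low oxygen, rose from 1.05 to 1.35 FPKM in AG to 5.82 to 12 in AGM (2.05 ± 0.38, limma FDR 0.00027) and 3.13 to 6.71 in TI (1.39 ± 0.35, limma FDR 0.0019). Adm was at 0.78 in TIM (limma FDR 0.0677). Egln3 rose in TI by 2.85 (limma FDR 0.00139) and was at 0.78 in TIM and -0.63 in AGM (limma FDR 0.359 and 0.571). Hif1a rose in TI by 0.50 (limma FDR 0.0162), was at -0.21 in TIM (FDR 0.305) and was lower in AGM (-0.61, FDR 0.0153). Bnip3, a gene of mitophagy, was lower in TI (-1.44, limma FDR 8.8e-06) and TIM (-0.78, limma FDR 0.0049) and higher in AGM (0.66, limma FDR 0.0419). A further list held angiogenesis inhibitors, matrix genes and the chemokine Cxcl12. Of its 9 tested genes, 1 was higher and 3 were lower in each tumor group, beside the same shares of all genes. The lower were Cxcl12, Timp3 and Sparc. When TI library 4 was left out, 2 were higher in TIM. Vash1, a listed inhibitor, was then higher by 1.68 in TI and 1.58 in TIM (limma FDR 0.000685 and 0.00105). Thbs1, an inhibitor, was 0.559 to 0.773 FPKM in AG, 0.711 to 13.1 in TI and 0.630 to 3.36 in TIM and was not called. Of 3 tested lymphatic genes, 1 was higher in each tumor group, beside 24.6% of all genes in TI and 22.5% in TIM. It was Prox1 in TI (1.06, limma FDR 0.00119) and TIM (0.78, limma FDR 0.0134). The other 2, Pdpn and Ccl21a, were not called in either. Which cells held Prox1 was not tested.

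**Figure D4:**
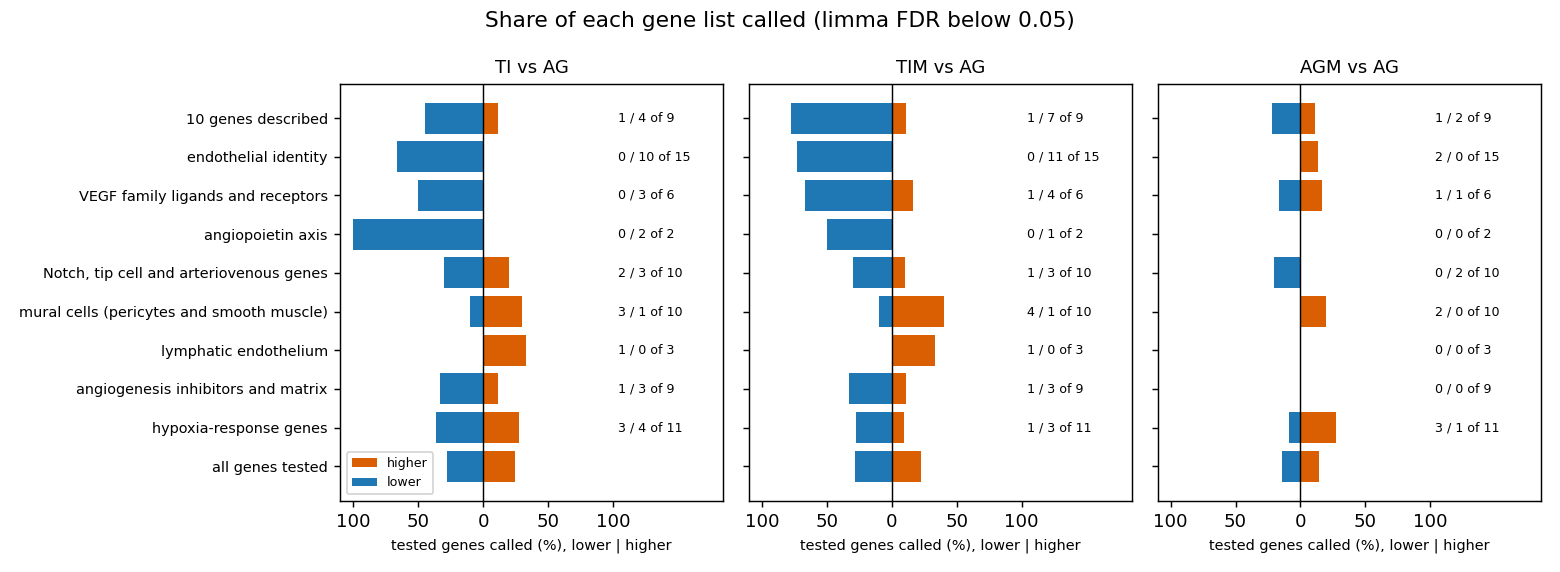
Share of the tested genes of each list called higher (right) or lower (left) by limma (FDR below 0.05) in TI, TIM and AGM against AG, with the counts higher / lower of tested at the right and all genes tested at the bottom. Endothelial identity genes were lower in 10 and 11 of 15 in the tumors, beside 27.7% and 28.5% of all genes, and 3 and 4 of 10 mural genes were higher beside 24.6% and 22.5%.

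Across the 24 libraries, with group means removed from log2(FPKM + 1), the endothelial members varied together. The correlation of Pecam1 with Tie1 was 0.97, of Cdh5 with Kdr 0.91 and of Kdr with Flt1 0.93, and these were 0.94, 0.81 and 0.82 without TI library 4. Cdh5 and Tek reached 0.66, and 0.28 without that library. Vegfa was at -0.11 to 0.30 with all other tested members. The 5 tested genes most like Cdh5 were Mmrn2 (0.946), Lrrc32 (0.945), S1pr1 (0.935), Adgrf5 (0.934) and Robo4 (0.934), at 0.892, 0.915, 0.877, 0.872 and 0.862 without TI library 4. Those most like Vegfa were Stk35 (0.752), Cnst (0.749), Brd2 (0.742), Arhgef7 (0.733) and Nav1 (0.732), at 0.767, 0.851, 0.743, 0.773 and 0.733 without it. Those most like Angpt2 were Igfbp3 (0.884), Sema3f (0.871), Inhbb (0.869), the tip cell gene Esm1 (0.859) and Cd93 (0.852), at 0.795, 0.774, 0.765, 0.784 and 0.731 without TI library 4. These values describe shared variation over tissue pieces of one data set, and pieces share their cell mixture.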

How the data were processed

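RNA-seq of 24 mouse libraries in 4 groups (AG, AGM, TI, TIM) was analysed from 1 deposited table of 21833 protein-coding genes. The authors trimmed reads (cutadapt 2.8), aligned them with HISAT2 2.1.0 to mm39, counted them with featureCounts 2.0.0 (submitters' processing notes), corrected a batch effect with ComBat-seq and normalized with TMM in edgeR 3.40, and deposited the values as FPKM. The table's columns of the authors' own fold changes and p-values were not used. ComBat-seq alters counts gene by gene, so values that differ between runs carry that correction. Columns named groups but no sample numbers. Per the study, individual mice were the replicates of its blots and genotyping of transgenic animals. That each library came from another mouse was assumed here, so p-values measure the spread between libraries.

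FPKM were compared with limma 3.58.1 (R 4.3.3) on log2(FPKM + 1) for the 10171 genes that reached 1 FPKM in 3 or more libraries, with 1 spread estimated from all 24 libraries and a Benjamini-Hochberg FDR below 0.05. Vwf and ratios to Cdh5 (pseudocount 0.1) were compared by exact two-sided permutation (scipy 1.17.1). Reads were recovered from FPKM steps: 100.0% of values were whole within 0.01 read. Scripts were tested on simulated data. Alternatives were another pseudocount, filter, spread estimate or ratio denominator, FPKM recomputed without genes above 1000 FPKM, limma-voom on recovered reads, and leaving out each library. The 10 genes and all lists were chosen with earlier results of these data known. Named companions and the 5 genes most correlated with Cdh5, Vegfa and Angpt2 (group-centred log2 values) followed a written rule, and other names illustrate counts of calls and were chosen after their values were seen. Promoter stretches were from RefSeq (GRCm38.p6), gene positions from GENCODE (GRCm39).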

Additional observations from a re-analysis of the deposited data

Results flagged for a closer look

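Single libraries were compared with the rest of their group by the gap to the nearest library over the whole range. This was done in 99 groups of values, with cutoffs that pick about 5% of groups of normally distributed values. Normality of the FPKM was not tested and these genes vary together, so the share picked by chance here is not known. The test picked 28 values, of which 20 belonged to TI library 4. For the genes described above, its FPKM were Pecam1 6.86, Cdh5 9.01, Kdr 1.27, Flt1 2.97, Tek 0.589, Tie1 4.80, Vwf 2.48, Plvap 45.2 and Angpt2 3.09, each the highest of the 8 TI tumors. For other vessel genes they were Pgf 1.87, Flt4 0.866, Dll4 3.63, Notch4 1.51, Eng 8.18, Erg 0.780, Emcn 2.06, Robo4 1.94, Pdgfrb 6.44, Rgs5 24.3 and Thbs1 13.1. In this library the mural list summed to 133 FPKM, the fibroblast markers to 57 and the matrix list to 237, each the highest of the TI group, while its cortex markers summed to 0.0422 FPKM. The part of tissue composition in these values was not tested.

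Elsewhere, TIM library 5 was high in Vwf (1.94 FPKM), Vegfb (9.80) and Sox18 (2.27), and its Gp1bb was at 355 FPKM, a gene at or near 0 in the glands and in TI. AGM library 3 was high in Angpt2 (0.260), TI library 6 in Vegfc (0.926), AGM library 2 in Nrp2 (0.834), TIM library 7 in Dll4 (1.33) and AGM library 5 in Eng (11.2).

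The difference of TIM from TI and that of AGM from AG also hold IGF2BP1 alleles, CRE, run, age and tumor site. They differed by 0.92 for Tek, 0.69 for Kdr, 0.50 for Aplnr and -2.66 for Adm on the log2 scale (limma FDR 3.06e-05, 0.0263, 0.03 and 0.000233). For Adm the FDR stayed between 0.000394 and 0.0113 with another pseudocount, no filter, recomputed FPKM or limma-voom. For Tek, Kdr and Aplnr it was above 0.05 with a pseudocount of 0.1 (0.213, 0.403 and 0.434), with recomputed FPKM (0.0664, 0.295 and 0.262) and with limma-voom (0.633, 0.542 and 0.767).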

How the results depend on the processing

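No paired analysis was possible because the table's columns carry no replicate numbers of the labels. Count tests (edgeR, DESeq2) were not run since the table holds FPKM, and limma-voom on recovered reads was added after seeing the data, as were the log-scale permutation of Vwf and the alternatives for the difference between TIM against TI and AGM against AG. Values of companion genes without TI library 4 and ratios with nothing added were also added then.

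With 1 FPKM required in every library, only 3464 genes and 2 of the 10 were tested, so counts fell: genes called 1627 (TI against AG), 1534 (TIM against AG), 569 (AGM against AG), 737 (TIM against TI) and 1944 (TIM against AGM), members called 1, 2, 1, 0 and 2, and companion genes called 7, 6, 1, 1 and 6. With the spread set by the 2 groups compared, AGM against AG gave 6312 genes, 6 members and 42 companions, and TIM against TI gave 1309 genes. In AGM against AG 1 member was called with a pseudocount of 0.1 and with limma-voom. For ratios to Cdh5, a pseudocount of 1 left 0 calls in AGM against AG and 3 in TIM against AGM, and Pecam1 as denominator gave 5 in AGM against AG. The cause of these shifts, other than fewer genes or a larger pseudocount, was not tested.

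Leaving out single libraries, members called ranged from 5 to 9 in TI against AG, 4 to 9 in TIM against AG and 0 to 1 in TIM against TI. Genes called in AGM against AG ranged from 1727 to 3319 and companions from 6 to 13. Ratios called ranged from 0 to 5 in TI against AG, 0 to 4 in TIM against AG, 0 to 3 in AGM against AG and 1 to 6 in TIM against AGM.

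Of the small differences that were not called, several changed sign. Across single left-out libraries, AGM against AG ranged from -0.04 to 0.02 for Pecam1 and -0.06 to 0.08 for Cdh5. TIM against TI ranged from -0.32 to 0.01 for Pecam1, -0.36 to 0.03 for Cdh5, -0.11 to 0.04 for Kdr, -0.14 to 0.13 for Flt1, -0.17 to 0.18 for Tie1, -0.34 to 0.18 for Plvap and -0.18 to 0.09 for Angpt2 (log2), all positive without TI library 4, and the Vwf difference ranged from -0.221 to 0.239 FPKM. The difference between TIM against TI and AGM against AG ranged from -0.32 to 0.01 for Pecam1, -0.36 to 0.02 for Cdh5 and -0.33 to 0.03 for Tie1. Log2 ratios to Cdh5 ranged, for Pecam1, from -0.07 to 0.09 (TI against AG), -0.09 to 0.19 (TIM against AG), -0.11 to 0.04 (AGM against AG), -0.12 to 0.16 (TIM against TI) and -0.08 to 0.20 (TIM against AGM), for Flt1 from -0.01 to 0.25 and for Vegfa from -0.32 to 0.04 (TIM against AG), and for Tek from -0.29 to 0.20 (TIM against TI). Limma-voom gave Pecam1 0.02 in AGM against AG, Flt1 0.42, Tie1 0.03 and Angpt2 0.08 in TIM against TI, and Flt1 0.07 for the difference of these contrasts. Recomputed FPKM gave Pecam1 0.02 in AGM against AG and Flt1 0.03 in TIM against TI, and a pseudocount of 0.1 gave Flt1 0.08 there. With a pseudocount of 1 the log2 ratio to Cdh5 was 0.30 for Flt1 in TI against AG, 0.28 for Flt1 in TIM against AGM and 0.12 for Tek in TIM against TI.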
